A study of Sus scrofa with 5 samples.

Results

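Insulin-like growth factor (IGF) signalling genes were followed across pig skin and skin grafts by single-cell RNA sequencing. The set named 8 genes: the ligands IGF1 and IGF2, the receptor IGF1R, and the binding protein genes IGFBP2, IGFBP4, IGFBP5, IGFBP6 and IGFBP7. Of these, 7 were measured among 20286 gene identifiers: 6 had their symbol in the deposited gene lists, and IGFBP6 was matched by its identifier through a symbol table. IGF2 had no match and was not analysed here. The rule names the genes and uses no measured value.

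Pigs had received full-thickness wounds covered with split-thickness skin grafts, and the grafts were either left untreated or dressed with a hydrogel that carried a focal adhesion kinase (FAK) inhibitor. The 5 libraries, 1 per group, were unwounded skin, untreated graft at day 7, FAK inhibitor graft at day 7, untreated graft at day 90 and FAK inhibitor graft at day 90. Strain, sex, age and the number of animals per library were not given in the labels, and no library of vehicle hydrogel without inhibitor was analysed here. With 1 library per group, no p-value could be computed. Every interval below is a 95% interval for counting error only, so differences between animals, grafts and dissociations cannot be told apart from differences between groups.

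IGF1 and IGF2 are secreted growth factors that act through the tyrosine kinase receptor IGF1R, which recruits insulin receptor substrates and activates PI3 kinase and AKT. The classical IGF binding proteins hold most of the extracellular ligand, can block or prolong its action, and are cut by proteases such as pappalysins. IGFBP7 binds IGFs weakly and is a known product of vascular cells. In skin, IGF1 is made mainly by dermal mesenchymal cells and macrophages and acts on keratinocytes and fibroblasts.

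The kept data were 26842 cells, between 1542 in unwounded skin and 8653 in the inhibitor graft at day 7, with median counts of unique molecular identifiers (UMIs) between 5495 and 9602 per cell. Clusters were given class names from marker genes, and 13 classes were named. Fibroblast-like cells numbered 259 in unwounded skin, 1405 and 1415 in the untreated and inhibitor grafts at day 7, and 2093 and 789 at day 90. Keratinocyte-like cells numbered between 29 and 470 per library, so epidermis made up a small part of every suspension. Across libraries, 320 cell barcodes occurred in more than 1 library; the largest overlaps were 152 barcodes between the inhibitor graft at day 90 and unwounded skin (8.07% of the barcodes of unwounded skin) and 133 between the untreated graft at day 90 and unwounded skin. The treatment comparisons of the fibroblast-like, endothelial-like and pericyte or smooth muscle-like classes and the comparisons of fibroblast-like cells with unwounded skin held 23 values of these genes past the 1.5-fold rule used below, and all 23 stayed past it without those barcodes. The other class comparisons held 23 further values, of which 21 stayed past it; the exceptions were IGFBP5 in endothelial-like cells against unwounded skin in the untreated graft at day 7 and the inhibitor graft at day 90, given below.

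Levels are given as CPM, the UMIs of a gene per 1000000 UMIs summed over all cells of a class in a library. A class was described in a library where it had at least 50 cells. A gene was called higher or lower where its CPM differed by at least 1.5-fold and reached 50 CPM in either library; this is a rule of size, not a test. Levels of different genes were not ranked against each other.

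The genes differed in which cells held their UMIs. IGFBP6 was mainly a fibroblast gene: fibroblast-like cells held 79.7% of its UMIs in unwounded skin and between 88.3% and 96.5% in the grafts. IGFBP7 was mainly vascular: endothelial-like and pericyte or smooth muscle-like cells (mural cells in the following) held 57.1% and 23.9% of its UMIs in unwounded skin. For IGFBP2 the source differed between libraries. Fibroblast-like cells held 4.28% of its UMIs in unwounded skin, against 84.5% and 93.4% in the untreated and inhibitor grafts at day 7, and 93.6% and 64.0% at day 90. These shares depend on how many cells of each class were captured.

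**Figure D1:**
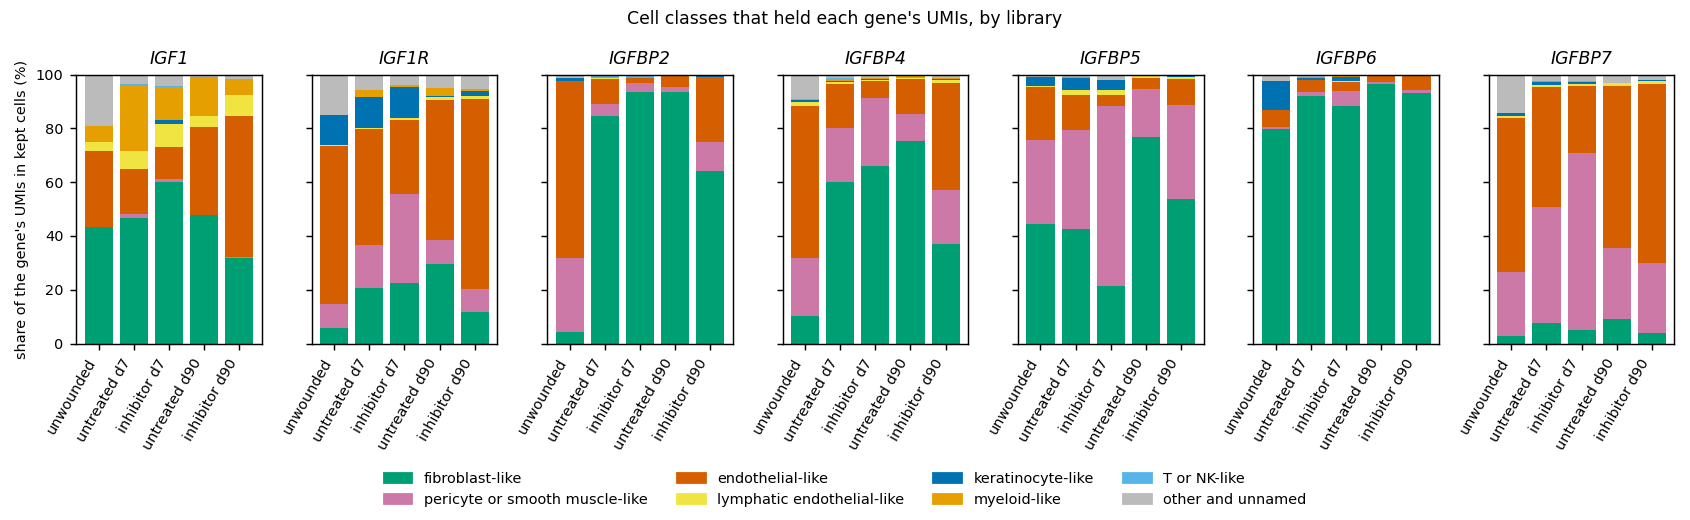
Share of each gene's UMIs (vertical axis, percent of the UMIs in kept cells) held by each cell class, with 1 bar per library. The IGFBP2 bar of unwounded skin is filled mainly by endothelial-like and pericyte or smooth muscle-like cells, while fibroblast-like cells hold at least 64.0% of the IGFBP2 UMIs in each graft library.

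IGF1, the ligand gene, was highest in lymphatic endothelial-like and myeloid-like cells and nearly absent from pericytes. In lymphatic endothelial-like cells it stood at 163.3 CPM in the untreated graft at day 7, 133.2 CPM in the inhibitor graft at day 7, 109.5 CPM in the untreated graft at day 90 and 133.7 CPM in the inhibitor graft at day 90, each from 59 to 83 cells. In myeloid-like cells, a class led by C1QB, C1QC and C1QA, the levels were 124.6, 72.52, 100.9 and 109.7 CPM in the same order. The intervals of these 2 classes overlapped in 3 of the 4 grafts, and did not overlap in the inhibitor graft at day 7 (104.8 to 167.0 against 59.37 to 87.71 CPM). Among myeloid-like cells thinned to 2000 UMIs each, between 13.4% and 19.4% had an IGF1 UMI in each graft (34.5% to 50.9% unthinned), against at most 0.485% of T or NK-like cells, a class that should lack the gene.

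At day 7, IGF1 in myeloid-like cells was 1.72-fold lower in the inhibitor graft (ratio 0.582, interval 0.464 to 0.726; 106 and 347 UMIs). This was 1 of 2 genes of the set that reached 50 CPM there, beside 12.2% of all genes called in that comparison. At day 90 the ratio was 1.09 (0.813 to 1.43), with 65 and 242 UMIs, and 11.0% of all genes were called. The neutrophil-like cluster led by SPP1 and ARG1 had 3.75 and 0.880 CPM of IGF1 in the untreated and inhibitor grafts at day 7. The split between these classes differed in some settings. Myeloid-like cells numbered 322 and 171 in these grafts, 495 and 253 without shared barcodes, and 301 and 344 with libraries clustered alone. In the last setting 337 and 0 cells were neutrophil-like. The IGF1 call was kept without shared barcodes and was not recomputed with libraries clustered alone.

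Fibroblast-like cells held IGF1 at 39.53 CPM in unwounded skin, 36.50 and 26.26 CPM in the untreated and inhibitor grafts at day 7, and 20.57 and 24.67 CPM at day 90. No library reached the 50 CPM asked for a call. Within the class, the cluster led by C4A, EFEMP1 and FBLN1 (cluster 12) had the highest IGF1 level in every library: 92.86 CPM in unwounded skin, 124.8 and 86.97 CPM at day 7, and 65.95 and 71.44 CPM at day 90. The other fibroblast-like clusters lay between 3.169 and 50.24 CPM. In mural cells IGF1 was at most 1.802 CPM, and in unwounded skin 0 UMIs were found in 312 cells, where 3 UMIs would give 1.51 CPM.

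IGF1R, the receptor gene, was low and broad. Its level was highest in endothelial-like cells in every library: 32.02 CPM in unwounded skin, 19.54 and 14.45 CPM in the untreated and inhibitor grafts at day 7, and 22.75 and 26.33 CPM at day 90. The next class in order overlapped it in both grafts at day 90 and the inhibitor graft at day 7. Keratinocyte-like cells, a textbook IGF1 target, had 16.05 CPM in unwounded skin and between 9.479 and 11.38 CPM in the 3 grafts with at least 50 such cells. Fibroblast-like cells lay between 5.673 and 7.686 CPM in all 5 libraries, with overlapping intervals. T or NK-like cells had 0 IGF1R UMIs in each of the 4 grafts; at the largest of these samples, 1894 cells, 3 UMIs would give 0.644 CPM. IGF1R reached 50 CPM in no class and library described, so it was never called.

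**Figure D2:**
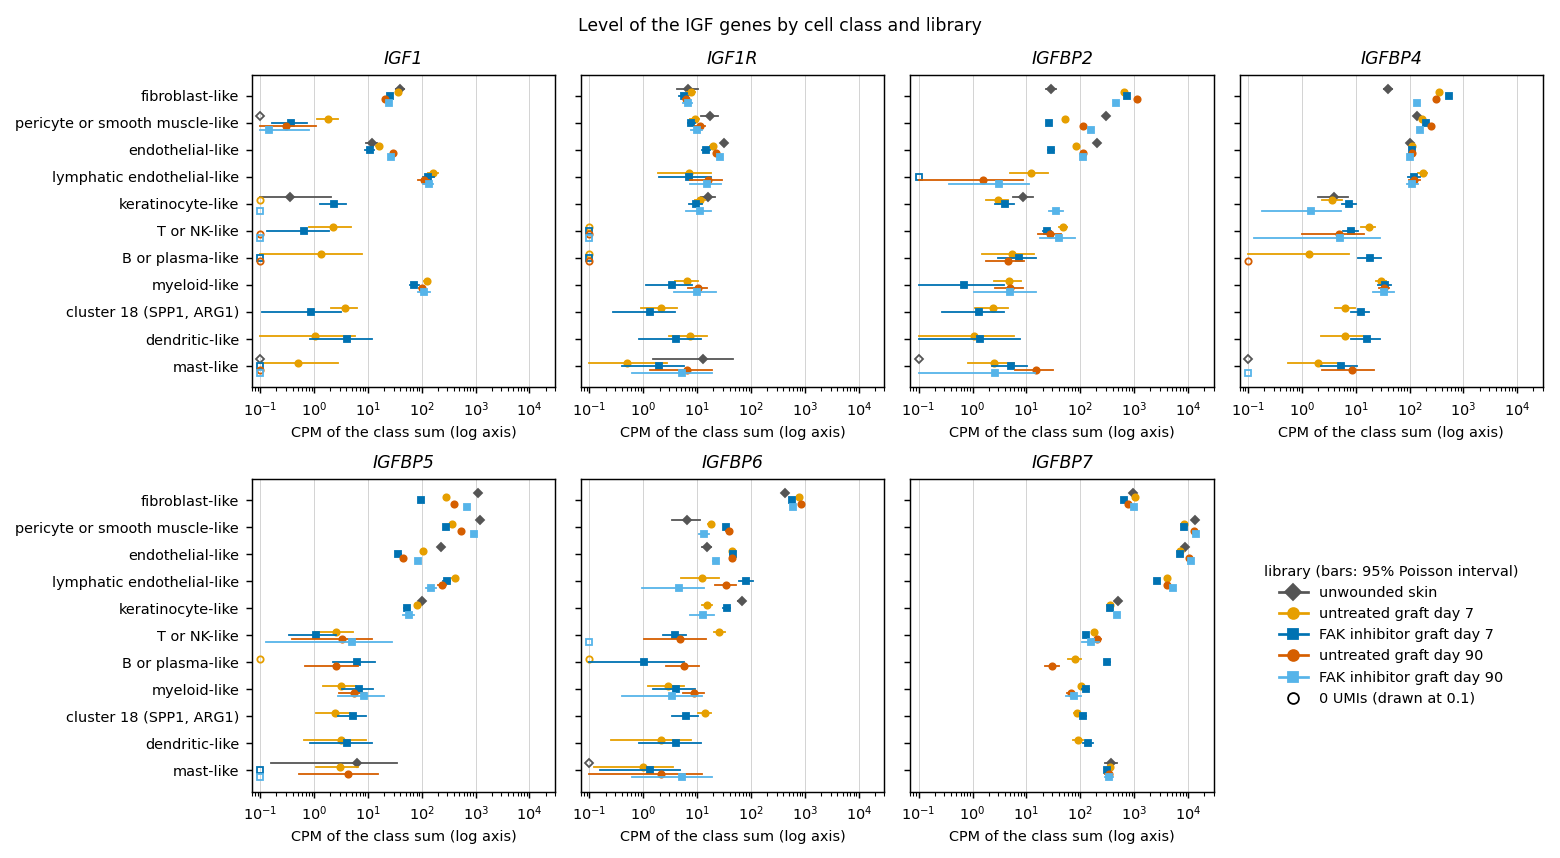
Level of the 7 measured genes (horizontal log axis, CPM of the class sum) in 11 cell classes, 1 point per library with its 95% Poisson interval; open symbols mark 0 UMIs. IGF1 peaks in lymphatic endothelial-like and myeloid-like cells, IGFBP6 in fibroblast-like cells and IGFBP7 in pericyte or smooth muscle-like and endothelial-like cells.

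IGFBP2, a binding protein gene otherwise known from fetal tissue and liver, was higher in fibroblast-like cells of every graft than in unwounded skin. Its level there was 28.95 CPM in unwounded skin, 634.9 and 727.4 CPM in the untreated and inhibitor grafts at day 7, and 1120 and 451.6 CPM at day 90. All 4 grafts lay above unwounded skin, with no overlap of intervals. The untreated graft at day 7 was 21.9-fold higher than unwounded skin (17.9 to 27.2), the untreated graft at day 90 was 38.7-fold higher (31.6 to 47.9), and the inhibitor graft at day 90 was 15.6-fold higher (12.7 to 19.4); the 93 IGFBP2 UMIs of unwounded fibroblast-like cells are shared by these 3 ratios. Among cells thinned to 2000 UMIs, 3.59% of unwounded fibroblast-like cells had an IGFBP2 UMI, against 50.7% in the untreated graft at day 90 (7.34% and 71.4% unthinned). The other fibroblast-like clusters had fewer than 20 cells in unwounded skin, so only clusters 12 and 15 could be weighed the same. With these 2 the direction held, at smaller sizes of 1.76, 2.62 and 2.20 on the log2 scale, in place of 4.45, 5.27 and 3.96. As a mean of per-cell CPM these differences were 2.81, 3.31 and 1.85, with stricter cell filters 5.27, 6.06 and 4.78, and without barcodes found in more than 1 library 4.39, 5.21 and 3.88.

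The fibroblast-like clusters differed in IGFBP2, and its level within a cluster differed between the times. At day 7 the cluster led by GREM1 and F13A1 (cluster 5) had 1263 and 1723 CPM of IGFBP2 in the untreated and inhibitor grafts, while the cluster led by MMP13 and IL11 (cluster 6) had 83.30 and 96.82 CPM. At day 90 in the untreated graft, cluster 6 had 1411 CPM and cluster 5 had 904.8 CPM, the latter from 92 cells, 4.40% of the class in place of 50.4% at day 7. The cluster led by THBS4, COL11A1 and SFRP2 (cluster 8) had 1336 CPM in the untreated and 1163 CPM in the inhibitor graft at day 90. Clusters 12 and 15, the latter led by CPZ and TNXB, held 47.1% of unwounded fibroblast-like cells each and stayed between 21.66 and 314.3 CPM.

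At day 90, IGFBP2 in fibroblast-like cells was 2.48-fold lower in the inhibitor graft than in the untreated graft (ratio 0.403, 0.393 to 0.414). Cluster 8 made up 47.8% of fibroblast-like cells in the untreated graft, against 18.9% with the inhibitor, and cluster 6 made up 18.2% and 0.634%. Clusters 12 and 15 had larger shares with the inhibitor: 12.4% and 29.0% for cluster 12, and 13.5% and 46.6% for cluster 15. Within clusters the ratio was 0.870 in cluster 8, 1.01 in cluster 12, 0.503 in cluster 15 and 0.877 in cluster 25, which is led by the cycling genes UBE2C and TOP2A. With these clusters weighing the same the log2 difference was -0.225 in place of -1.31, which is no longer past 1.5-fold. At day 7 the class ratio was 1.15 (1.12 to 1.17), which was not called.

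**Figure D3:**
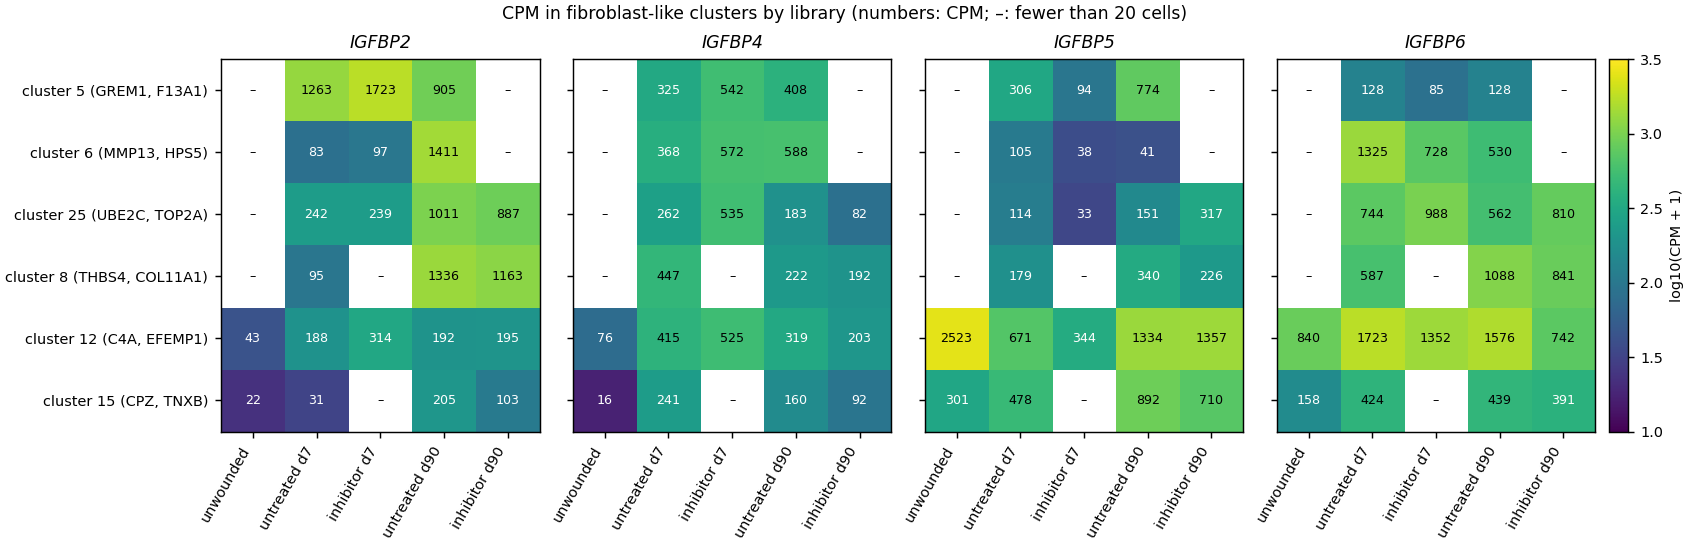
CPM of IGFBP2, IGFBP4, IGFBP5 and IGFBP6 in fibroblast-like clusters (rows, named by leading genes) in each library (columns); colour is log10(CPM + 1), numbers are CPM, and a dash marks fewer than 20 cells. IGFBP2 is high in cluster 5 of both grafts at day 7 and of the untreated graft at day 90. At day 90 it is also high in clusters 8 and 25 of both grafts and in cluster 6 of the untreated graft. IGFBP5 is highest in cluster 12 of unwounded skin.

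Summed over the class, IGFBP2 was lower in grafts than in unwounded skin in mural and in endothelial-like cells, while it was higher in fibroblast-like cells. Mural cells had 301.9 CPM in unwounded skin, 51.51 and 26.57 CPM in the untreated and inhibitor grafts at day 7, and 113.6 and 157.3 CPM at day 90. Endothelial-like cells had 203.3, 84.92, 28.59, 112.5 and 114.0 CPM in the same order. The untreated graft at day 7 was 5.86-fold lower than unwounded skin in mural cells and 2.39-fold lower in endothelial-like cells. In mural cells the ratio was below 1 in each of 3 clusters compared (0.160, 0.303 and 0.452). Within endothelial-like clusters the direction did not hold: the ratio was 7.77 in cluster 3 (243.5 against 31.34 CPM), 1.02 in cluster 10 and 0.224 in cluster 13, and with shared clusters weighing the same the log2 difference was 0.103 in place of -1.26. Cluster 1, led by CXCL11, held 52.8% of the class in the untreated graft at day 7 and 0.189% in unwounded skin.

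At day 7 the inhibitor graft was lower than the untreated graft in both classes, with ratios of 0.516 (0.459 to 0.579) and 0.337 (0.294 to 0.384). In mural cells the level rests on 51.51 CPM, close to the 50 CPM asked, and the call there was lost under 3 alternatives. Within mural clusters the ratio was 0.788 in cluster 0 and 0.159 in cluster 4. Cluster 19, led by CXCL10, had 7.228 CPM and made up 25.2% of the class in the inhibitor graft, against 0.764% in the untreated graft. The part of cluster makeup in the class ratio was not tested.

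The endothelial-like difference at day 7 was present in both clusters that reached 50 CPM. Cluster 10, led by SCIN, APOA1 and SEMA3G, had 502.5 CPM in the untreated and 159.6 CPM in the inhibitor graft, and cluster 3, led by ACKR1, had 243.5 and 99.03 CPM. Beside this, cluster 10 held 183 cells in the untreated and 53 in the inhibitor graft, and summed fibroblast marker levels in the class were 3050 and 1658 CPM. Within cluster 10 the fibroblast marker levels were 528.8 and 291.5 CPM, beside 99820 and 80720 CPM in fibroblast-like cells. The part of these markers and cells in the difference was not tested.

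T or NK-like cells had IGFBP2 at 47.48 and 24.28 CPM in the untreated and inhibitor grafts at day 7, under the level asked for a call. After thinning, 7.59% and 4.72% of these cells had an IGFBP2 UMI, against 1.02% and 0.637% of myeloid-like cells. For every 1000 UMIs of the fibroblast marker list, T or NK-like cells of the untreated graft at day 7 held 42.9 IGFBP2 UMIs, while fibroblast-like cells held 6.36. The cluster of this class led by RHEX, IL17F and BLK had 80.71 CPM of IGFBP2 in that library.

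IGFBP4, the substrate of the protease pappalysin-1, was higher in fibroblast-like cells of every graft than in unwounded skin, and its 2 treatment differences had opposite signs. It stood at 39.85 CPM in unwounded skin, 346.9 and 550.3 CPM in the untreated and inhibitor grafts at day 7, and 313.3 and 140.5 CPM at day 90, and none of these intervals overlapped unwounded skin. The untreated grafts were 8.71-fold (7.31 to 10.5) and 7.86-fold (6.61 to 9.43) higher than unwounded skin at day 7 and day 90, and the inhibitor graft at day 90 was 3.53-fold higher (2.95 to 4.25).

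At day 7 IGFBP4 was 1.59-fold higher in the inhibitor graft (1.54 to 1.64), and it was higher in 4 of 4 fibroblast-like clusters compared, with ratios between 1.27 and 2.04. At day 90 it was 2.23-fold lower in the inhibitor graft (ratio 0.448, 0.428 to 0.470), and it was lower in 4 of 4 clusters, with ratios between 0.448 and 0.866. In mural cells the levels were 172.6 and 200.0 CPM at day 7, a ratio of 1.16 (1.10 to 1.22), which was not called. At day 90 they were 246.3 and 158.9 CPM, and the inhibitor graft was lower in 4 of 4 clusters and for the class as a whole (ratio 0.645, 0.597 to 0.697). Endothelial-like cells had IGFBP4 between 100.4 and 112.0 CPM in all 5 libraries.

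IGFBP5, which binds extracellular matrix and is known from fibroblasts and smooth muscle, was lower in every graft than in unwounded skin when summed over fibroblast-like cells. It stood at 1094 CPM in unwounded skin, 280.8 and 95.64 CPM in the untreated and inhibitor grafts at day 7, and 398.8 and 693.2 CPM at day 90. The untreated grafts were 3.90-fold and 2.74-fold lower than unwounded skin at day 7 and day 90, and the inhibitor graft at day 90 was 1.58-fold lower. With shared clusters weighing the same, the log2 differences at day 90 were -0.343 (untreated) and -0.450 (inhibitor), in place of -1.46 and -0.659, and were not past 1.5-fold. The 2 clusters compared moved apart: cluster 12 was lower in the 3 grafts compared (ratios 0.266, 0.529 and 0.538), while cluster 15 was higher, by 1.59-fold at day 7 (untreated, 22 cells) and by 2.97-fold (untreated) and 2.36-fold (inhibitor) at day 90.

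At day 7, fibroblast-like IGFBP5 was 2.94-fold lower in the inhibitor graft (ratio 0.341, 0.323 to 0.359) and lower in 4 of 4 clusters, with ratios between 0.294 and 0.514. At day 90 it was 1.74-fold higher in the inhibitor graft (1.69 to 1.78) for the class. The clusters did not share that direction: the ratio was 0.664 in cluster 8, 1.02 in cluster 12, 0.796 in cluster 15 and 2.09 in cluster 25. The clusters with the higher IGFBP5 levels, 12 and 15, made up the larger shares given above in the inhibitor graft, and with clusters weighing the same the log2 difference was -0.0582, of the opposite sign.

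Mural cells had a similar order of IGFBP5 levels over the libraries: 1228 CPM in unwounded skin, 357.7 and 283.4 CPM at day 7, and 540.5 and 924.0 CPM at day 90. Against unwounded skin, clusters 0 and 4 were lower in the untreated graft at day 7 (0.266 and 0.434). They were also lower at day 90 (untreated 0.318 and 0.661, inhibitor 0.543 and 0.936). Cluster 2 was higher, with ratios of 3.69, 3.5 and 7.1 in the same order, against 14 UMIs in 30 unwounded cells. The ratio of the inhibitor to the untreated graft was 0.792 (0.762 to 0.824) at day 7, not called, and 1.71 (1.64 to 1.78) at day 90. The difference at day 90 was present in 4 of 4 clusters, with ratios between 1.42 and 3.03, and was as large with clusters weighing the same.

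In endothelial-like cells IGFBP5 stood at 223.0 CPM in unwounded skin, 103.9 and 36.50 CPM at day 7, and 45.46 and 85.08 CPM at day 90, with treatment ratios of 0.351 (0.312 to 0.395) and 1.87 (1.73 to 2.03). Most of it sat in cluster 13, led by GPIHBP1 and ADGRF4, at 501.7 CPM in unwounded skin, 208.0 and 77.16 CPM at day 7, and 95.83 and 171.1 CPM at day 90. Cells of cluster 13 had median UMI counts between 16408 and 30959, and a summed pericyte or smooth muscle marker level between 5347 and 6971 CPM, against 167.4 to 326.7 CPM in cluster 3. How far pairs of cells under 1 barcode contribute was not tested. With each library clustered alone, both endothelial-like differences changed sign, to 0.24 at day 7 and -3.03 at day 90 on the log2 scale. In that setting 713 cells of the inhibitor graft at day 90 were named endothelial-like, in place of 1307. With clusters weighing the same, the day 7 difference was -0.292 in place of -1.51. Cluster 10 had the opposite direction at day 7, 8.37-fold higher in the inhibitor graft (174.9 against 20.91 CPM, 5.21 to 13.8), from 53 and 183 cells. That value rests on few cells: its 57 and 27 UMIs sat in 9.43% and 6.01% of them.

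Against unwounded skin, endothelial-like IGFBP5 was lower as a class sum, with log2 differences of -1.10 at day 7 (untreated), -2.29 at day 90 (untreated) and -1.39 at day 90 (inhibitor). Without barcodes found in more than 1 library these were 0.413, -0.950 and -0.0584. The first changed sign, and the first and the third were no longer past 1.5-fold. Endothelial-like cells of unwounded skin then numbered 482 in place of 529. Barcodes shared with the untreated graft at day 90 had median UMIs of 34518 in unwounded skin and 1214 in the graft. Those shared with the inhibitor graft at day 90 had 962 and 49946. The cause of the change was not tested. Within clusters at day 7 the ratio was 3.12 in cluster 3 and 0.415 in cluster 13. The cluster 3 ratio rests on few cells, 4.26% of 94 in the graft and 1.95% of 257 in unwounded skin.

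IGFBP6, which prefers IGF2 as a ligand, stood in fibroblast-like cells at 424.3 CPM in unwounded skin, 765.7 and 577.2 CPM at day 7, and 854.2 and 599.4 CPM at day 90. All 4 grafts lay above unwounded skin. The untreated grafts were 1.80-fold (1.71 to 1.91) and 2.01-fold (1.91 to 2.13) higher; the day 7 difference of 0.852 on the log2 scale was 0.454 as a mean of per-cell CPM and 0.570 when centred on the median of all genes, both below the rule. The inhibitor graft was 1.41-fold higher at day 90, which was not called. Treatment ratios of the class were 0.754 at day 7 and 0.702 at day 90, below the 1.5-fold rule at both times. Within clusters the ratio at day 7 was 0.662 in cluster 5, 0.55 in cluster 6, 0.785 in cluster 12 and 1.33 in cluster 25. At day 90 it was 0.773 in cluster 8, 0.471 in cluster 12, 0.891 in cluster 15 and 1.44 in cluster 25. Clusters 5 and 6 at day 7 and cluster 12 at day 90 were thus past 1.5-fold. Mural cells held IGFBP6 under 50 CPM in every library, at 18.02 and 34.66 CPM in the untreated and inhibitor grafts at day 7 and 38.66 and 13.51 CPM at day 90. Within the class, cluster 5 was the low cluster, with IGFBP6 between 84.83 and 128.4 CPM, and cluster 12 was the highest in unwounded skin, at both treatments of day 7 and in the untreated graft at day 90, between 840.1 and 1723 CPM.

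Keratinocyte-like cells held IGFBP6 at 66.76 CPM in unwounded skin, 15.22 and 35.26 CPM in the untreated and inhibitor grafts at day 7, and 12.60 CPM in the inhibitor graft at day 90. The untreated graft at day 7 was 4.39-fold lower than unwounded skin, and the inhibitor graft at day 90 was 5.30-fold lower. These were among 1 of 3 and 2 of 3 genes of the set called, beside 42.3% and 13.3% of all genes. Summed fibroblast marker levels in these cells were 2874 CPM in unwounded skin, 789.8 CPM in the untreated graft at day 7 and 440.8 CPM in the inhibitor graft at day 90, and moved with IGFBP6; their part in the result was not tested. IGFBP5 in keratinocyte-like cells stood at 79.96 and 52.89 CPM in the untreated and inhibitor grafts at day 7, a ratio of 0.661 (0.574 to 0.761). It was 1 of 2 genes called, beside 9.15% of all genes. Cluster 14, led by S100A2, had 92.01 and 58.64 CPM. Cluster 26, led by KRT1, had 12.65 and 19.32 CPM, from 13 and 17 UMIs with overlapping intervals. Of 4 calls in keratinocyte-like cells, 3 were kept with clusters weighing the same.

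Lymphatic endothelial-like cells numbered 59 to 83 per graft, and 17.4% and 23.5% of all genes were called there between treatments at day 7 and day 90. At day 7 IGFBP6 had 46 UMIs in the inhibitor and 7 in the untreated graft, a ratio of 6.65 (2.98 to 17.5), and IGFBP7 was lower in the inhibitor graft (2677 against 4072 CPM). At day 90 IGFBP5 was lower in the inhibitor graft (147.5 against 241.0 CPM). The intervals of IGF1 between treatments reached from 0.594 to 1.12 at day 7 and from 0.881 to 1.70 at day 90, so no difference was detectable at this depth.

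IGFBP7, whose product is a known component of vessel basement membranes, was present in nearly every vascular cell. At 2000 UMIs per cell, at least 99.5% of endothelial-like and 99.8% of mural cells had an IGFBP7 UMI in each library. Mural cells had 13280 CPM in unwounded skin, 8392 and 8344 CPM at day 7, and 13100 and 13870 CPM at day 90. Both day 7 grafts lay below the other 3 libraries; the untreated graft at day 7 was 1.58-fold lower than unwounded skin as a class sum, and the ratio of the untreated graft at day 90 to unwounded skin was 0.986. Within mural clusters the day 7 ratio was 0.481 in cluster 0, 0.795 in cluster 2 and 0.962 in cluster 4, and with these weighing the same the log2 difference was -0.528 in place of -0.663, below the rule. Cluster 2 made up 39.2% of the class in that graft and 9.62% in unwounded skin, and cluster 4 made up 19.5% and 50.3%. Endothelial-like cells had 8961, 7146, 6963, 10500 and 11300 CPM in the same order of libraries, with no ratio past 1.5-fold. Treatment ratios in these 2 classes lay between 0.974 and 1.08.

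In fibroblast-like cells IGFBP7 stood at 963.8 CPM in unwounded skin, 1033 and 650.9 CPM at day 7, and 767.5 and 1000 CPM at day 90. It was 1.59-fold lower in the inhibitor graft at day 7 (ratio 0.630, 0.616 to 0.644) and lower in 4 of 4 clusters, with 1 of them, cluster 12, past 1.5-fold (2173 and 853.2 CPM). The class difference of -0.666 on the log2 scale was -0.574 with stricter cell filters and -0.450 with doublets kept, both below the rule. Against unwounded skin, clusters 12 and 15 did not follow the class sums at day 90. Their IGFBP7 ratios were 1.54 and 3.26 in the untreated graft, and 1.57 and 1.68 in the inhibitor graft. In the untreated graft at day 7 they were 0.945 and 2.77, the latter from 22 graft cells. Mast-like cells had IGFBP7 between 311.0 and 378.6 CPM in all 5 libraries. After thinning, 41.0% to 45.2% of them had an IGFBP7 UMI, against 8.70% to 15.8% of myeloid-like cells and 13.9% to 23.4% of T or NK-like cells in the grafts.

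**Figure D4:**
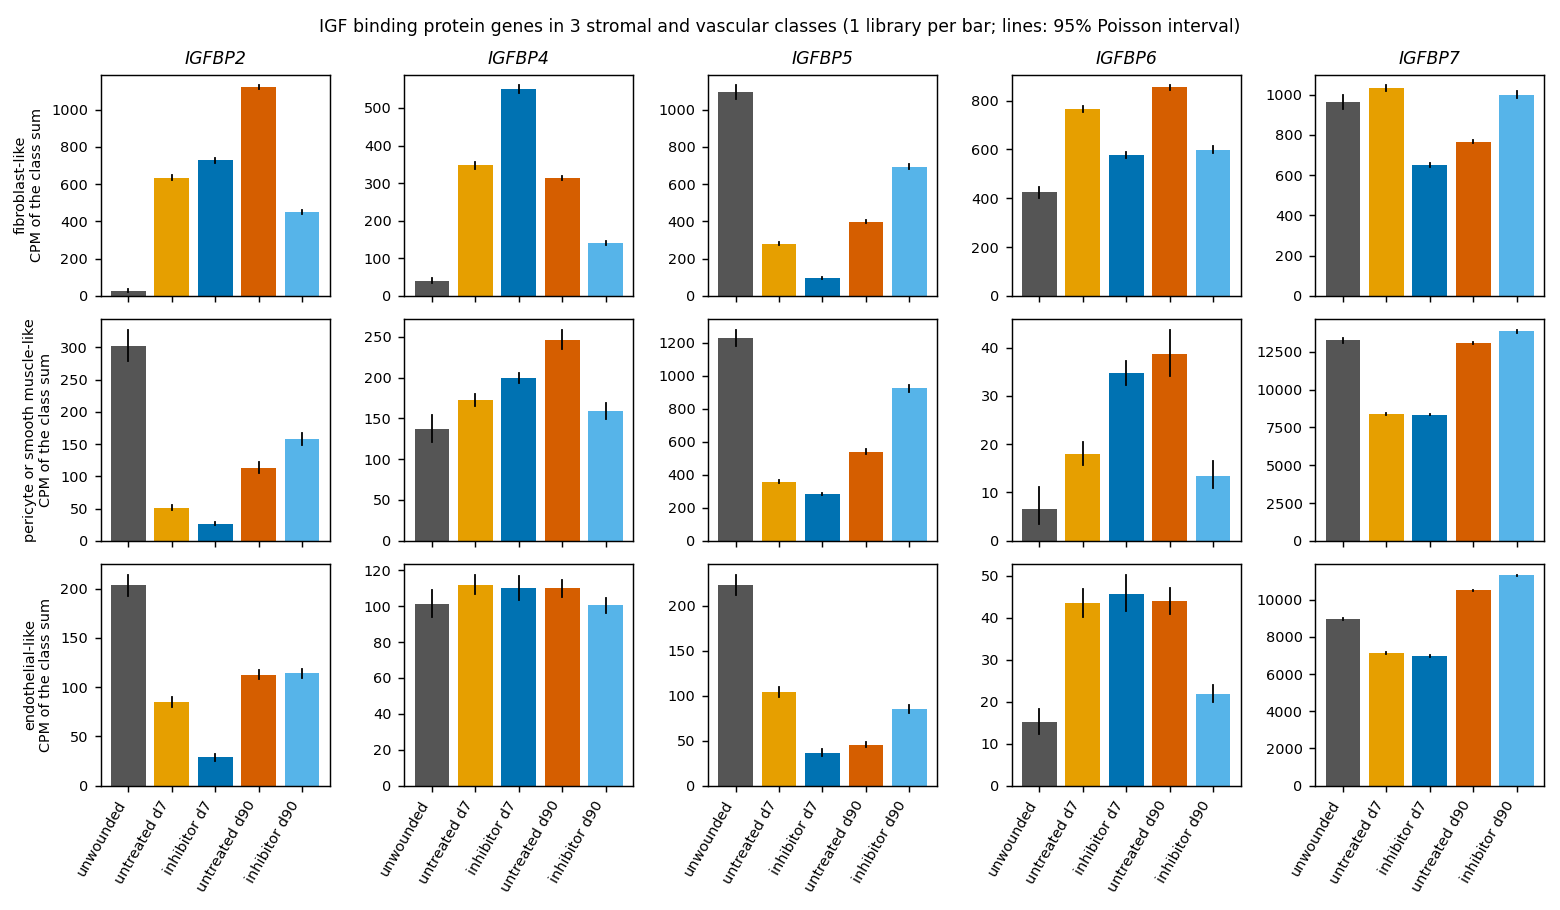
CPM (vertical axes, starting at 0) of the 5 binding protein genes in fibroblast-like, pericyte or smooth muscle-like and endothelial-like cells, 1 bar per library with its 95% Poisson interval. As class sums, IGFBP2 is lowest in unwounded skin in fibroblast-like cells and highest there in both vascular classes, and IGFBP5 is highest in unwounded skin in all 3 classes.

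Counted together, few members reached 50 CPM in a class, and each count stands beside the share of all genes that met the same rule. In fibroblast-like cells of the untreated graft at day 7, 3 genes were higher and 1 lower of 5 at 50 CPM, beside 54.2% of all genes. For the untreated graft at day 90 the count was the same, beside 44.4%, and for the inhibitor graft at day 90 it was 2 higher and 1 lower, beside 25.8%. These comparisons share the library of unwounded skin. The median log2 difference of all genes was 0.337, 0.158 and 0.0316 in these comparisons, and that of the members was 0.852, 1.01 and 0.498. In mural cells 3 of 4, 3 of 4 and 1 of 4 genes were called, beside 40.8%, 21.3% and 7.19% of all genes. In endothelial-like cells IGFBP2 and IGFBP5 were lower as class sums in each of the 3 comparisons. That was 2 of 4 genes each, beside 37.6%, 15.8% and 6.65%. Of these 6 calls, 5 were kept with shared clusters weighing the same and 4 without barcodes found in more than 1 library. In each of these alternatives 1 call changed sign. Ratios within clusters for the untreated graft at day 7 are given above, and the cause was not tested.

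For treatment in fibroblast-like cells, 1 gene was higher (IGFBP4) and 2 lower (IGFBP5, IGFBP7) of 5 at day 7, beside 7.29% of all genes, and 1 was higher (IGFBP5) and 2 lower (IGFBP2, IGFBP4) of 5 at day 90, beside 11.8%. The median log2 difference of all genes was -0.134 at day 90 and 0.0588 at day 7, and that of the members was -0.511 and -0.408. In mural cells 1 of 4 genes was called at day 7 and 2 of 4 at day 90, beside 8.36% and 5.57%. In endothelial-like cells 2 of 4 and 1 of 4 were called, beside 6.78% and 1.89%. At day 7 the cluster makeup of the classes differed between treatments as well: the CXCL10-led pericyte cluster 19 held 615 cells of the inhibitor and 13 of the untreated graft, and the CXCL11-led endothelial cluster 1 held 70.8% and 52.8% of the class.

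**Figure D5:**
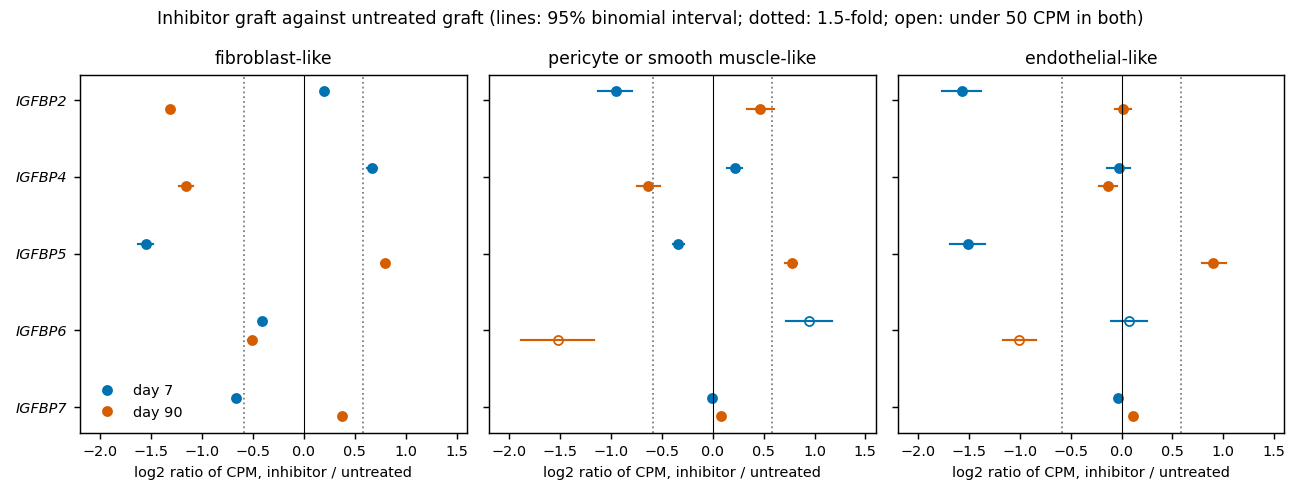
Log2 ratio of CPM of the inhibitor to the untreated graft (horizontal axis) for the 5 binding protein genes in 3 classes at day 7 and day 90, with 95% binomial intervals; dotted lines mark 1.5-fold and open points genes under 50 CPM in both libraries. IGFBP4 and IGFBP5 in fibroblast-like cells lie on opposite sides of 0 at the 2 times, and IGFBP7 in vascular classes lies near 0.

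A list of 53 further genes of the pathway was described in the same way, and 48 of them were measured. In fibroblast-like cells at day 7, 0 of 10 list genes at 50 CPM were called between treatments, beside 7.29% of all genes. At day 90, beside 11.8% of all genes, 1 was higher in the inhibitor graft (PIK3R1, a regulatory subunit of PI3 kinase, 92.37 against 55.56 CPM) and 1 lower (ADAM12, a protease that can cut binding proteins, 163.0 against 271.7 CPM). Against unwounded skin, 4 of 12 were higher and 3 lower in the untreated graft at day 7, a share near the 54.2% of all genes called there. ADAM12 had 28.95 CPM in unwounded skin and 235.5 CPM in that graft, 8.13-fold higher (6.62 to 10.1). KAZALD1, which encodes a protein with an IGF binding protein domain, had 74.09 and 5.032 CPM, and IRS2, the insulin receptor substrate, had 66.62 and 23.45 CPM. ADAM12 was also higher, and KAZALD1, IRS2 and PIK3R1 lower, in both grafts at day 90; the list median log2 difference was 0.0977 at day 7, below that of all genes.

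In mural cells the protease gene PAPPA2, whose product cuts IGFBP5, stood at 62.90 CPM in unwounded skin and at 2.703, 5.075 and 4.407 CPM in the untreated graft at day 7 and the untreated and inhibitor grafts at day 90. CRIM1 and IRS2 were lower than in unwounded skin in the same 3 grafts, while HTRA1 was higher in them. EIF4EBP1 was higher in both untreated grafts, ADAM9 in the untreated graft at day 7 and HTRA3 in that at day 90. In the same order, 3 were higher and 4 lower of 12, 3 and 3 of 13, and 1 and 3 of 11. The shares of all genes called were 40.8%, 21.3% and 7.19%. Between treatments, 0 of 10 list genes were called at day 7, beside 8.36% of all genes; at day 90 IRS2 was higher in the inhibitor graft (62.58 against 32.24 CPM) and the protease gene HTRA3 (14.98 against 60.45 CPM) and EIF4EBP1, a translation repressor regulated by mTOR, were lower, 3 of 12 beside 5.57% of all genes. In endothelial-like cells at day 7, ESM1 was higher (103.6 against 57.02 CPM) and ADAMTS1 lower (603.1 against 937.7 CPM) in the inhibitor graft, 2 of 17 beside 6.78% of all genes, and 0 of 14 were called at day 90, beside 1.89%. INSR, the insulin receptor gene, had 35.43 CPM in endothelial-like cells of unwounded skin and 78.16 CPM in the untreated graft at day 7.

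The genes most like each member were found by Pearson correlation of log2(CPM + 10) over 43 class-by-library sums among 6088 genes. The sums share libraries and classes, so these values describe the pattern only. IGFBP2 was most like ASPN, which encodes asporin (r = 0.893), SCARA3 and CDH11, and IGF1 most like SLCO2B1 (0.870), DAB2 and SDC3. IGFBP4 was most like NECTIN3 (0.934), IGFBP5 like ABL1 (0.954), and IGFBP6 like FKBP10 (0.915), a collagen chaperone gene. IGFBP7 was most like SMTN (0.960), a smooth muscle gene, MSRB3 and TIMP3, and IGF1R like MRTFB (0.894).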

How the data were processed

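The authors deposited 1 matrix per library of UMI counts per gene and barcode, made with Cell Ranger per the submitters' processing notes, from 10x 3′ v3 libraries per the labels' protocols. For genome build and annotation: not given in the sources used here. Deposited matrices held 18485301 to 79671374 UMIs per library. A cell needed 500 or more genes and no more than 25% mitochondrial UMIs. Scrublet's automatic threshold called 0, 0, 83, 3 and 5 doublets, so its top-scoring cells (0.8% per 1000 cells) were removed, 524, 700, 255, 116 and 19 in the untreated and inhibitor grafts at day 7, at day 90 and unwounded skin.

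All libraries were clustered together without integration (2000 variable genes without the members, 30 components, 20 neighbours, Leiden resolution 1), giving 38 clusters, of which 5 stayed unnamed. Names came from markers of 17 classes (136 of 152 genes measured): a score of 0.8, 3 markers and 50% of them raised 1.5-fold, and a lead of 0.5, with the top 10 genes not against the name. The software was Matplotlib 3.10.9, pandas 2.3.3, SciPy 1.17.1, NumPy 2.4.6, igraph 0.11.9, leidenalg 0.10.2, scikit-learn 1.9.0 and Scanpy 1.11.5 (with Scrublet) under Python 3.11.15.

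UMIs were summed per class and library. CPM had exact Poisson, ratios exact conditional binomial and shares exact Clopper-Pearson intervals; the ratio interval was tested on simulated data. PCR and cell-to-cell spread are not covered. Named genes were the members, the pathway genes past the 1.5-fold rule and the 3 genes most like each member; clusters were singled out after their values were seen. The members, the pathway list and the markers were chosen with earlier results of these data known. Alternatives were other cell filters, doublets kept, members among the variable genes, resolution 2, libraries clustered alone, per-cell means, centring, 10 CPM, a 2-fold rule and equal cluster weights; leaving out shared barcodes was added after seeing the data, as were the alternatives for the other class comparisons.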

Additional observations from a re-analysis of the deposited data

Results flagged for a closer look

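For 3 gene and class pairs, the inhibitor graft stood above the untreated graft past the rule of size at 1 time and below it at the other. The difference between the times was not tested, because each rests on 1 library per group. IGFBP4 in fibroblast-like cells had a log2 difference of 0.666 at day 7 and -1.16 at day 90. IGFBP5 in fibroblast-like cells had -1.55 at day 7 and 0.798 at day 90, and the value at day 90 did not hold within clusters, as given above. IGFBP5 in endothelial-like cells had -1.51 at day 7 and 0.904 at day 90, both sitting mainly in cluster 13, the cluster with high UMI counts and pericyte marker levels.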

How the results depend on the processing

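Of 23 values past 1.5-fold in the treatment comparisons of fibroblast-like, endothelial-like and pericyte or smooth muscle-like cells and in the comparisons of fibroblast-like cells with unwounded skin, 23 kept their call with every barcode kept, with the members among the variable genes, at resolution 2, at 10 CPM and without shared barcodes. The number was 22 with stricter filters, with doublets kept and with centring, and 21 with libraries clustered alone. It was 19 with per-cell means, 17 with clusters weighing the same and 14 under the 2-fold rule. With libraries clustered alone, 716 cells of the untreated graft at day 90 were fibroblast-like, in place of 2093, and 1505 were unnamed. At resolution 2, endothelial-like cells at day 7 numbered 832 and 631 (untreated and inhibitor), in place of 1476 and 1164. Calls kept there rest on fewer cells. In the same comparisons, 18 further values reached 50 CPM but were not called. Of these, 3 became called with clusters weighing the same, 2 with libraries clustered alone, 1 at resolution 2 and 1 with per-cell means. Among the 23, the sign changed for IGFBP5 in endothelial-like cells with libraries clustered alone (0.24 at day 7 and -3.03 at day 90). It also changed for IGFBP5 in fibroblast-like cells at day 90 with clusters weighing the same (-0.0582). The cause was not tested for either. For 23 values in the other class comparisons only 2 alternatives were run, both chosen after seeing the data: 21 kept their call without shared barcodes and 19 with clusters weighing the same. Signs changed for endothelial-like cells of the untreated graft at day 7 against unwounded skin, in IGFBP5 without shared barcodes (0.413) and in IGFBP2 with clusters weighing the same (0.103).

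The count of members called between treatments differed from the value above as follows. In endothelial-like cells it was 1 at day 7 (in place of 2) with libraries clustered alone and with clusters weighing the same; at day 90 (in place of 1) it was 2 with libraries clustered alone and at 10 CPM, and 0 with per-cell means and under the 2-fold rule. In pericyte or smooth muscle-like cells at day 7 (in place of 1) it was 2 at 10 CPM and 0 with per-cell means, the 2-fold rule and clusters weighing the same; at day 90 (in place of 2) it was 1 with per-cell means and 0 under the 2-fold rule. In fibroblast-like cells it was 1 under the 2-fold rule at day 7 and 1 with clusters weighing the same at day 90 (in place of 3 each). The 2-fold rule asks for more by construction. Equal cluster weights used only clusters with at least 20 cells in both libraries of a comparison. No paired analysis was possible because each group has 1 library, and no library could be left out. IGF1R had no call because of the 50 CPM asked, not because of its depth; depth limits the lymphatic endothelial-like values, from 59 to 83 cells per graft.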
